A study of Mus musculus with 8 samples.

Results

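The 8 genes described here, *S100a8*, *S100a9*, *Retnlg*, *Lcn2*, *Il1r2*, *Csf3r*, *Trem1*, and *Ngp*, are genes known for high expression in neutrophils, and they were measured by bulk RNA-Seq in macrophages sorted from epididymal white adipose tissue (eWAT). They are 8 of the 54146 genes in the deposited counts and 8 of the 17095 genes tested. They were chosen by name with the measured values of the FCGR4+ against FCGR4- comparison already known, so their differences in that comparison are given as a description, with no P value. The libraries came from 4 C57Bl6 mice fed a high-fat diet (HFHC, with added cholesterol, in the study's methods) for 24 weeks and then given 30% less food, a caloric restriction called stCR, over 2 weeks. From each mouse, 1 library was made of FCGR4+ and 1 of FCGR4- cells, and all 8 libraries share the diet and the restriction, so no mouse without stCR enters these comparisons. Age is not given in the sources used here. Before the split on FCGR4, the sort kept cells positive for CD45 and CD11b and removed cells positive for CD3, B220, Ly6G, or SiglecF.

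Neutrophils are short-lived granulocytes that leave the bone marrow under the action of the cytokine G-CSF, whose receptor *Csf3r* encodes, and reach inflamed tissue quickly. Their cytosol is filled with calprotectin, the calcium-binding dimer of S100A8 and S100A9, and their granules carry proteins loaded at successive stages of maturation, so that mature circulating cells contain granule proteins whose mRNA they no longer make. In obese adipose tissue they are a small early population among many macrophages. Several of these genes are also transcribed in monocytes, *S100a8*, *S100a9*, and *Trem1* among them, so none of the 8 marks a neutrophil on its own.

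The promoter sequences of 5 members are shown because 2 of them, the neighbors *S100a8* and *S100a9*, moved almost in step, while the other 3 did not move the same way in every mouse. *S100a8* lies on the plus strand of chromosome 3 and *S100a9* on the minus strand, with 22596 bases between the 2 genes in the deposited annotation. Each line gives the 120 bases before the start site that RefSeq gives on GRCm38.p6 (the assembly called mm10), 5′ to 3′ on the strand of the gene, with motif matches in capitals. The RefSeq starts of *S100a8*, *Csf3r*, and *Ngp* lie inside the genes as the deposited annotation draws them.
S100a8, chr3:90668951-90669070, plus strand: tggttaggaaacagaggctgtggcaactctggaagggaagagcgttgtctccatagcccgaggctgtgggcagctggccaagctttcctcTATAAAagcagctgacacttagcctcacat
S100a9, chr3:90695722-90695841, minus strand: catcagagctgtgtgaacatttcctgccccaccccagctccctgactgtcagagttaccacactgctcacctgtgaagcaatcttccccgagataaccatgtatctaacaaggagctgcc
Csf3r, chr4:126024539-126024658, plus strand: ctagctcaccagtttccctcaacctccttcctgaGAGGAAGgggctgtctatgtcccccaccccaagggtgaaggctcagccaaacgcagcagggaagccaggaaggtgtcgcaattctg
Trem1, chr17:48232619-48232738, plus strand: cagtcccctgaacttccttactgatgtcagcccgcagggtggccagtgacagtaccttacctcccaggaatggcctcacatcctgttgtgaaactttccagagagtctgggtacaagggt
Ngp, chr9:110419688-110419807, plus strand: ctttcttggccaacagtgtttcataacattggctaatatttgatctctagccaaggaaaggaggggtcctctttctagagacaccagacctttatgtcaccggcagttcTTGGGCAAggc

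The motifs were searched on both strands over 250 bases before the start, and no pair of them overlapped in a member. They were TTNNGCAA, a form of the site of the C/EBP factors that drive granulocyte genes, GAGGAAG, a core bound by the myeloid factor PU.1, and TATAAA, the TATA box. TTNNGCAA was present before 4 of the 8 starts (*Lcn2*, *S100a9*, *Ngp*, and *Retnlg*) and in 9.56% of 32851 RefSeq promoters. GAGGAAG was present before 3 (*Lcn2*, *S100a8*, and *Csf3r*) and in 10.6%, and TATAAA before *S100a8* and in 12.4%. In the stretches shown, the TATAAA of *S100a8* began 30 bases before the start and the TTNNGCAA match of *Ngp* 11 bases before it. These matches are letters in a window and were not tied to binding.

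*Fcgr4*, the gene of the receptor used for the sort, lay between 139 and 236 normalized CPM (counts relative to the size of the library, scaled by edgeR's TMM method) in the FCGR4+ libraries and between 48.5 and 82.9 in the FCGR4- libraries, a log2 fold change of 1.61 (SE 0.17, adjusted P = 0.0162 in edgeR's paired quasi-likelihood test). Total counts were between 35992794 and 66856746 per library, so that 3 counts, the floor used for a value of 0, equal 0.0440 to 0.0883 CPM. Fold changes below are FCGR4+ over FCGR4-, from edgeR with mouse as a block, and a gene is called at an adjusted P under 0.1. The median log2 fold change of all 17095 tested genes was -0.0025. Among them 203 (1.19%) were called lower and 14 (0.0819%) higher in FCGR4+ macrophages, and 1781 (10.4%) were lower in 4 of 4 mice without regard to a test.

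The name neutrophil genes fitted the cells only in part. Of the transcripts made mainly in neutrophil precursors of the bone marrow, some were at or near 0, with at most 3 counts of *Mpo* (myeloperoxidase), 4 of *Ms4a3*, 20 of *Elane* (neutrophil elastase), and 23 of *Camp* (cathelicidin) in any library. Others of the same list were detected, with 21 to 253 counts of *Prtn3* (proteinase 3) across the 8 libraries. A library held at most 226 counts of *Ctsg* (cathepsin G), 443 of *Ltf* (lactoferrin), and 892 of *Olfm4*. *Ctsg* and *Olfm4* were lower in FCGR4+ cells of 4 of 4 mice, *Ltf* in 3 and *Prtn3* in 1. The log2 fold changes of *Ctsg* and *Olfm4* were -5.33 (SE 1.54) and -4.51 (SE 1.02). Their adjusted P values were 0.279 and 0.158 in edgeR and 0.000143 and 5.6e-05 in DESeq2, a second paired count test. *Ly6g*, the antigen used to remove neutrophils, was low but present. Its counts were 68, 12, 302, and 100 in the FCGR4- libraries of mice 1 to 4 and 15, 18, 85, and 3 in the FCGR4+ libraries. The log2 fold change of *Ly6g* was -2.03 (SE 0.73). Its adjusted P was 0.418 in edgeR and 0.0658 in DESeq2, so a call depends on the method. The FCGR4- library of mouse 3, which had the most *Ly6g*, also had the highest level of 6 of the 8 members. The libraries' macrophage genes were far above these levels, with a summed CPM of 11 macrophage markers from 22686 to 54542 against 149 to 2844 for the 8 members. In bulk libraries, fewer cells of a type and less RNA per cell cannot be told apart, and whether the member transcripts came from neutrophils, monocytes, or macrophages was not tested.

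In every mouse, 5 members were lower in FCGR4+ than in FCGR4- macrophages, namely the calprotectin genes *S100a8* and *S100a9*, the resistin-like gene *Retnlg*, the lipocalin *Lcn2*, and the decoy receptor gene *Il1r2*. The other 3, *Csf3r*, *Trem1*, and *Ngp*, were lower in 2 mice and higher in 2. So 5 of 8 members were lower in 4 of 4 mice, beside 10.4% of all tested genes, and the same 5 were called lower, beside 1.19%, shares that carry no further reading since the members were chosen on this comparison. The log2 fold changes of the 8 ran from -3.29 to -0.82, with a median of -2.06.

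*S100a8* encodes the smaller calprotectin subunit, a ligand of the innate receptor TLR4. It stood at 187, 182, 1211, and 249.96 CPM in the FCGR4- libraries of mice 1 to 4 and at 45.1, 36.4, 294, and 60.4 CPM in the FCGR4+ libraries. Mouse 3 was highest in both populations, and its FCGR4+ library held more *S100a8* than the FCGR4- libraries of the other 3 mice, so the populations overlapped across mice although every mouse fell. The log2 fold change was -2.12 (SE 0.13), or 4.34-fold lower. The per-mouse log2 ratios were -2.05, -2.33, -2.04, and -2.05, with an SD of 0.139 (n = 4), beside an SD of the log2 level between mice of 1.37 in FCGR4+ and 1.30 in FCGR4- libraries.

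*S100a9* encodes the partner subunit. Its FCGR4- levels were 74.4, 51.3, 725, and 166 CPM and its FCGR4+ levels 16.2, 12.3, 157, and 30.4 CPM in mice 1 to 4, again highest in mouse 3 in both populations and overlapping across mice. The log2 fold change was -2.23 (SE 0.14), with per-mouse log2 ratios from -2.44 to -2.05 (SD 0.162, n = 4). The level of *S100a9* thus varied 14.1-fold between mice within the FCGR4- libraries and 12.7-fold within the FCGR4+ libraries, while the difference between the populations stayed close to the same size in each mouse. The ratio of *S100a9* to *S100a8* CPM was 0.281 to 0.399 in the 4 libraries of mice 1 and 2. In those of mice 3 and 4 it was 0.502 to 0.662, so the 2 transcripts were not in 1 fixed proportion. Together the pair made up 23.4% to 73.5% of the members' summed CPM.

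**Figure D1:**
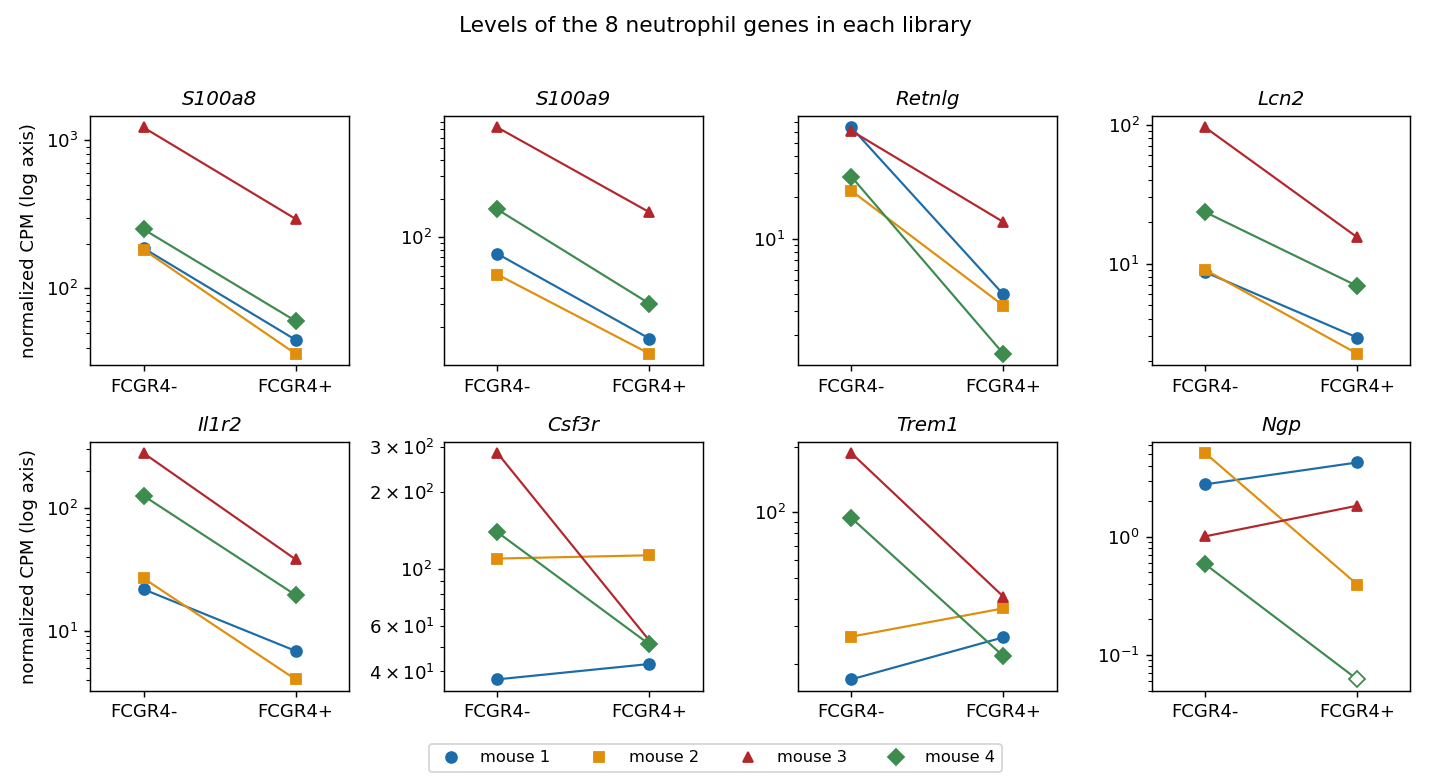
Normalized CPM (log axis, its range set for each gene) of the 8 neutrophil genes in FCGR4- and FCGR4+ libraries, with a line joining the 2 libraries of each mouse; the open symbol is a library with 0 counts, drawn at the level of 3 counts. The lines of *S100a8*, *S100a9*, *Retnlg*, *Lcn2*, and *Il1r2* all fall from left to right, those of *Csf3r* and *Trem1* fall in mice 3 and 4 and rise slightly in mice 1 and 2, and those of *Ngp* cross.

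*Retnlg*, a secreted resistin-like protein made by mouse granulocytes, had the largest difference of the 8. It was at 64.3, 22.3, 60.8, and 28.3 CPM in FCGR4- and at 3.96, 3.29, 13.3, and 1.47 CPM in FCGR4+ libraries of mice 1 to 4. It was the only member whose populations did not overlap, every FCGR4+ library lying below every FCGR4- library, as for 517 (3.02%) of all tested genes. The log2 fold change was -3.29 (SE 0.38), or 9.76-fold lower, and the per-mouse log2 ratios spread from -4.22 in mouse 4 to -2.19 in mouse 3. Unlike calprotectin, *Retnlg* was not highest in the FCGR4- cells of mouse 3, since mouse 1 stood slightly above it.

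*Lcn2*, which encodes a secreted carrier of bacterial siderophores stored in specific granules, had the lowest level per length of these 5 genes in both populations. Its levels were 8.66, 9.0, 95.2, and 23.4 CPM in FCGR4- and 2.93, 2.25, 15.4, and 6.89 CPM in FCGR4+ libraries. The log2 fold change was -1.99 (SE 0.21), with per-mouse log2 ratios from -2.62 in mouse 3 to -1.55 in mouse 1. The FCGR4+ library of mouse 3 exceeded the FCGR4- libraries of mice 1 and 2, so the populations overlapped across mice.

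*Il1r2* encodes the receptor that binds IL-1 without signaling and so acts as a decoy. It was at 21.8, 26.7, 280.1, and 126 CPM in FCGR4- and at 6.85, 4.01, 38.2, and 19.6 CPM in FCGR4+ libraries of mice 1 to 4. Mouse 3 was highest and mouse 4 next in both populations, and the FCGR4+ library of mouse 3 exceeded the FCGR4- libraries of mice 1 and 2. The log2 fold change was -2.50 (SE 0.23), and mouse 1, at a log2 ratio of -1.66, differed least, while mice 2 to 4 lay between -2.88 and -2.68.

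*Csf3r*, the receptor through which G-CSF directs the output and survival of neutrophils, was not lower in every mouse. Its FCGR4- levels were 37.3, 110.1, 283, and 139 CPM and its FCGR4+ levels 42.8, 113, 52.7, and 51.0 CPM. In mice 1 and 2 the log2 ratios were 0.20 and 0.04, slightly higher in FCGR4+ cells, while in mice 3 and 4 the log2 ratios were -2.43 and -1.45. The log2 fold change over all 4 mice was -0.90 (SE 0.45). About 10.7% of its sequence, in 50-base words, also occurs in other genes, beside 0% for the other 7 members, and pairs with more than 1 place in the genome had been counted everywhere they mapped.

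*Trem1*, an activating receptor of neutrophils and monocytes that signals through the adaptor DAP12, split the mice in the same way. It stood at 17.0, 26.8, 187, and 94.2 CPM in FCGR4- and at 26.6, 36.1, 40.9, and 21.8 CPM in FCGR4+ libraries. The FCGR4+ libraries thus lay within a 1.88-fold range, whereas the FCGR4- libraries spanned 11-fold. The log2 ratios were 0.64 and 0.43 in mice 1 and 2, higher in FCGR4+ cells, and -2.19 and -2.11 in mice 3 and 4, for a log2 fold change of -0.82 (SE 0.56).

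*Ngp*, the neutrophilic granule protein gene that is most active in marrow precursors, had the lowest level per length of the 8 in both populations. Its counts were 181, 174, 56, and 40 in FCGR4- libraries of mice 1 to 4 (2.79, 5.12, 1.01, and 0.586 CPM) and 253, 19, 115, and 0 in FCGR4+ libraries (4.27, 0.395, 1.84, and 0 CPM). The 0 in mouse 4 allows up to 3 counts, or 0.0623 CPM, counting error only. Mice 1 and 3 were higher and mice 2 and 4 lower in FCGR4+ cells, so the log2 fold change of -1.36 had an SE of 1.19, nearly as large as itself. With mice 1 to 4 left out in turn it was -2.56, -0.46, -2.33, and -0.48. *Ngp* was also the only member with fewer than 10 counts in a library, and so the only one lost when 10 counts were required in every library.

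**Figure D2:**
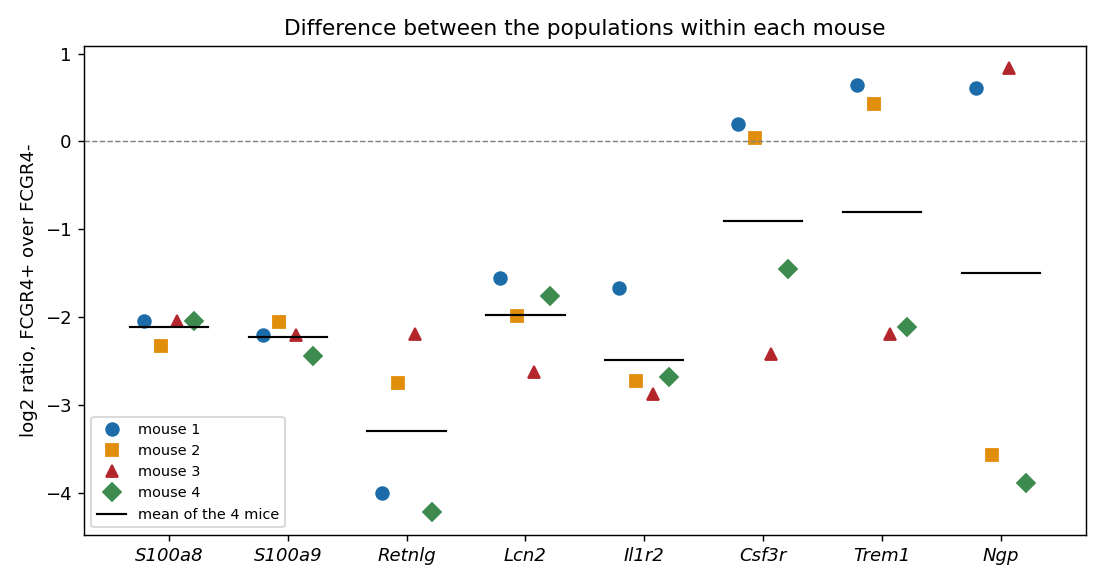
Log2 ratio of FCGR4+ over FCGR4- macrophages (log2 CPM with a prior count of 2) of each neutrophil gene in each of 4 mice, with the mean as a bar and a dashed line at no difference. The points of *S100a8* lie within -2.33 to -2.04 and those of *S100a9* within -2.44 to -2.05, while *Csf3r* and *Trem1* lie above 0 in mice 1 and 2 and between -2.43 and -1.45 in mice 3 and 4.

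Mice 1 and 2 carry a different animal ID prefix in the labels from mice 3 and 4, and what the prefix stands for is not given. Whether the FCGR4 difference differed between the prefixes was a question that the choice of members did not use, and it was tested in edgeR by an interaction term within the paired model. For *Trem1* the difference was 2.69 log2 units more negative in mice 3 and 4 (interaction -2.69, SE 0.20, unadjusted P = 1.66e-05, adjusted P = 0.285), the smallest P value of all 17095 genes. For *Csf3r* the interaction was -2.06 (SE 0.35, unadjusted P = 0.00131, adjusted P = 0.303, rank 63). Neither passed the adjusted threshold, and 0 of 17095 genes (0%) did, with 2355 (13.8%) at an unadjusted P under 0.05. Among the 13923 genes with at least 10 counts in every library, *Trem1* was the 1 gene called (adjusted P = 0.0315), and *Csf3r* had an adjusted P of 0.140, so the call for *Trem1* depends on the filter. The interactions of the other 6 members lay between -0.60 and 0.27, with unadjusted P values from 0.162 to 0.939, and the SE was largest for *Ngp*, at 2.88.

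Per kilobase of gene length, which allows levels of different genes to be compared, *S100a8* was highest in FCGR4- macrophages at a mean of 659 RPKM, followed by *S100a9* at 487, *Retnlg* at 74.1, *Il1r2* at 59.5, *Csf3r* at 39.5, *Trem1* at 27.1, *Lcn2* at 13, and *Ngp* at 1.94. In FCGR4+ macrophages the order was *S100a8* (157 RPKM), *S100a9* (104), *Csf3r* (18), *Trem1* (10.5), *Retnlg* (9.27), *Il1r2* (8.98), *Lcn2* (2.62), and *Ngp* (1.33). *Csf3r* and *Trem1* therefore stood above *Retnlg* and *Il1r2* in one population and below them in the other. *S100a8* exceeded *S100a9* per length in 4 of 4 mice in both populations, by 0.71 ± 0.568 log2 units in FCGR4- and 0.82 ± 0.334 in FCGR4+ cells (SD, n = 4). *Retnlg* and *Il1r2*, next to each other in both orders, changed places in at least 1 mouse, with a mean difference of 0.92 ± 1.79 log2 units in FCGR4- and 0.12 ± 1.503 in FCGR4+ cells, within the spread. *Il1r2* and *Csf3r* in FCGR4- cells, *S100a9* and *Csf3r* as well as *Trem1* and *Retnlg* in FCGR4+ cells, and *Lcn2* and *Ngp* in both held their order in 3 of 4 mice, with mean differences smaller than their SD. The remaining neighbors held theirs in 4 of 4 mice.

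Of the wider neutrophil program, 53 more genes were listed by role, of which 45 were abundant enough to test. Of these 45, 15 were called lower and 0 higher, beside 1.19% and 0.0819% of all genes, with a median log2 fold change of -1.57 against -0.0025 over all genes. With DESeq2 23 were called lower and 0 higher, beside 4.87% and 1.12% of all genes, and at an unadjusted P under 0.05 in edgeR 24 were lower and 0 higher, beside 6.67% and 3.1% of all genes. The lists were written with earlier results of these data known.

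Among granule genes, 4 of 11 tested were called lower (median -1.36), each lower in 4 of 4 mice. *Mmp9*, the gelatinase of tertiary granules, was at 17.2, 32.9, 87.8, and 55.6 CPM in FCGR4- and at 4.64, 6.84, 9.89, and 2.30 CPM in FCGR4+ libraries, with no overlap between them (log2 fold change -2.94, SE 0.44, adjusted P = 0.0516 in edgeR). The collagenase *Mmp8* (-1.72, SE 0.32), the peptidoglycan-binding *Pglyrp1* (-1.59, SE 0.31), and the surface antigen *Cd177* (-1.36, SE 0.21) had adjusted P values in edgeR of 0.0831, 0.0994, and 0.0527. *Mmp8* did not follow the members in its levels, since its highest library was the FCGR4- library of mouse 2, at 194 CPM, against 56.8 CPM in mouse 3.

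Among cytosolic and secreted products, 5 of 10 tested were called lower (median -1.92). *Il1f9*, the older symbol of the IL-1 family cytokine gene *Il36g*, had the largest fold change of the 5, -3.09 on the log2 scale (SE 0.27, adjusted P = 0.00803 in edgeR), and its FCGR4- levels of 8.76, 24.8, 219.8, and 53.5 CPM against FCGR4+ levels of 1.85, 2.45, 15.9, and 7.08 CPM were again highest in mouse 3. The protease inhibitor *Serpinb1a* (-2.39, SE 0.32), the stefin *Stfa2l1* (-2.10, SE 0.35), *Wfdc21* (-1.74, SE 0.31), and the inflammatory cytokine *Il1b* (-1.61, SE 0.27) had adjusted P values in edgeR of 0.0361, 0.0666, 0.0722, and 0.0666. *Stfa2l1* shares 24.6% of its 50-base words with other genes, so part of its counts may belong to its relatives.

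Among receptors and surface proteins, 3 of 15 tested were called lower (median -0.74). *Cxcr2*, the chemokine receptor that draws neutrophils out of the marrow and into tissue, was at 3.17, 4.30, 38.7, and 12.2 CPM in FCGR4- and at 1.21, 1.08, 4.89, and 1.70 CPM in FCGR4+ libraries (log2 fold change -2.33, SE 0.32, adjusted P = 0.0396 in edgeR). The other calls were *Mrgpra2a* (-2.40) and *Mrgpra2b* (-2.39), near-identical copies that share 87.5% and 81.2% of their 50-base words with other genes and count as 1 signal.

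Among enzymes and factors, 3 of 9 tested were called lower (median -1.57). *Asprv1*, an aspartic protease, had a log2 fold change of -3.51 (SE 0.61, adjusted P = 0.0687 in edgeR). The histamine-forming enzyme *Hdc*, which mast cells and basophils make in large amounts, stood at 64.0, 45.8, 195, and 50.5 CPM in FCGR4- and at 3.79, 5.74, 17.4, and 7.64 CPM in FCGR4+ libraries (-3.32, SE 0.25, adjusted P = 0.00600 in edgeR). *G0s2*, an inhibitor of the lipase ATGL, had a log2 fold change of -2.89 (SE 0.24, adjusted P = 0.00731 in edgeR). Neither *Hdc* nor *G0s2* overlapped between the populations.

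**Figure D3:**
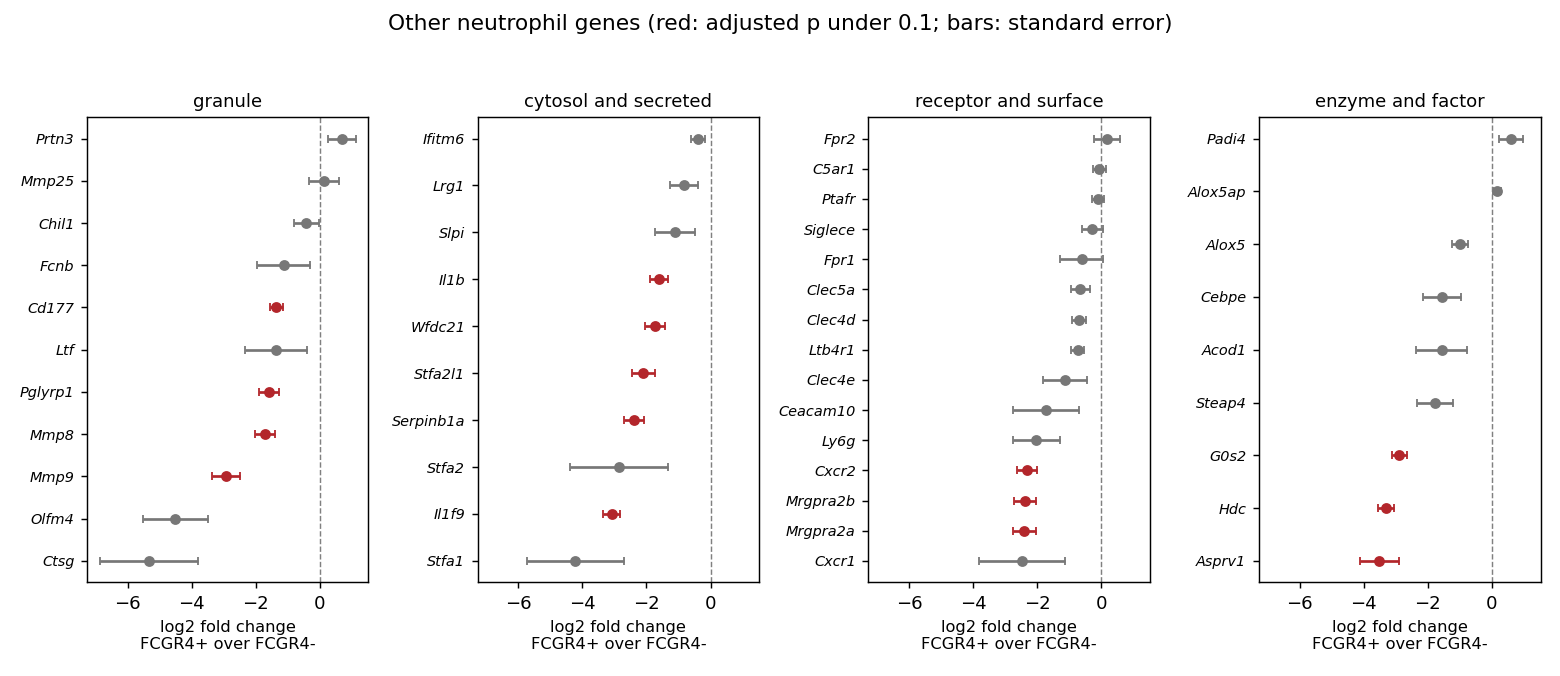
Log2 fold change of FCGR4+ over FCGR4- macrophages with its standard error for the 45 tested genes of the wider neutrophil lists, in 4 panels by role, with genes past an adjusted P of 0.1 in red. The red points, 15 in all, lie below 0, between -3.51 and -1.36, and 5 genes of the 45 lie above 0, none of them red.

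Genes that act with the members were listed as well. Of 24 ligands, receptors, adaptors, and relatives, 21 were tested and 0 were called by edgeR, beside 1.19% of all genes called lower and 0.0819% higher, with 5 lower and 1 higher at an unadjusted P under 0.05 and 1 lower by DESeq2, and their median log2 fold change was -0.22. *Il1b*, a ligand that *Il1r2* binds, was called lower but is counted with the secreted products above. *Tlr4*, a receptor of calprotectin, was at 65.3 to 96.1 CPM in FCGR4- and 65.0 to 147 CPM in FCGR4+ libraries (log2 fold change 0.14, SE 0.16), and *Ager*, the other receptor, did not exceed 0.751 CPM in any library. *Slc22a17*, a receptor of lipocalin 2, was also low, at 0.677 to 1.93 CPM in FCGR4- and 0.287 to 0.645 CPM in FCGR4+ libraries. These did not overlap (log2 fold change -1.24, SE 0.58, adjusted P = 0.536 in edgeR).

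Around the decoy *Il1r2*, the signaling receptor *Il1r1* was low (log2 fold change -1.63, SE 0.67) and its partner chain *Il1rap* had a log2 fold change of -0.59 (SE 0.24). The ligands and antagonist were more abundant, with *Il1a* at a log2 fold change of -1.40 (SE 0.56) and *Il1rn*, the receptor antagonist, at -1.08 (SE 0.47), and their adjusted P values in edgeR were 0.483 and 0.513. *Il1rn* reached 1353 CPM in the FCGR4- library of mouse 3, against 133 CPM in that of mouse 1, the same highest library as for *Il1r2*.

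*Csf3*, the gene of the G-CSF ligand, reached 10 counts in too few libraries to be tested. Its counts were 0, 19, 193, and 3 in FCGR4- and 0, 0, 12, and 0 in FCGR4+ libraries of mice 1 to 4, so its highest library was the FCGR4- library of mouse 3, as for *Csf3r*. *Tyrobp*, which encodes DAP12, was abundant, between 1226 and 2014 CPM in all 8 libraries (log2 fold change 0.14, SE 0.14, adjusted P = 0.744 in edgeR). *Trem3*, the neighbor and relative of *Trem1*, had log2 ratios of 1.34 and -0.16 in mice 1 and 2 and of -2.41 and -1.32 in mice 3 and 4 (log2 fold change -0.67, SE 0.60). Of the resistin family, *Retn* did not exceed 0.596 CPM in any library. *Retnla*, a product of alternatively activated macrophages, had a log2 fold change of -1.23 (SE 0.31, adjusted P = 0.198 in edgeR). It was the 1 partner gene called lower by DESeq2 (adjusted P = 0.000636). The log2 ratios of *Retnla* in mice 1 to 4 were -1.55, -1.93, 0.0018, and -1.41. Other S100 genes did not pass the test: 0 of 7 tested were called in either direction by edgeR, with 2 lower at an unadjusted P under 0.05 and 2 called lower by DESeq2.

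The genes whose levels over the 8 libraries were most like those of the 8 members were found by the root mean square distance between each gene's centered log2 CPM and the members' mean profile, among 13491 genes with a mean of at least 1 CPM. The nearest 5 were *Slc2a3* (a glucose transporter, distance 0.327), *Fstl1* (0.476), *Stfa2l1* (0.493), *Cxcr2* (0.506), and *Ackr3* (0.519), beside a median distance of 1.36 over all candidates. Of these 5, *Stfa2l1* and *Cxcr2* were already in the neutrophil lists. *Slc2a3* was at 6.19, 5.18, 43.0, and 10.3 CPM in FCGR4- and at 2.17, 1.19, 6.45, and 1.81 CPM in FCGR4+ libraries of mice 1 to 4, the same high mouse as the members. Of the members themselves, *S100a8* was nearest to the mean profile (0.429), *Csf3r* and *Retnlg* lay at 1.01 and 0.989, and *Ngp* lay farthest (2.05), beyond the median of all candidates.

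Markers of several other cell types were also lower in FCGR4+ cells, while those of others were not. Of 11 mast cell and basophil markers 10 were tested and 9 called lower (median log2 fold change -5.72), and their summed level was 201 to 2128 CPM in FCGR4- and 6.85 to 25.0 CPM in FCGR4+ libraries. This sum was highest in mouse 1 and lowest in mouse 3 among the FCGR4- libraries, the reverse of the members, whose sum was lowest in mouse 1 (413 CPM) and highest in mouse 3 (2844 CPM). *Hdc*, shared by both cell types, was highest in mouse 3, with 195 CPM.

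Dendritic cell markers (4 of 8 called lower, summed 46.0 to 102 CPM in FCGR4- and 8.61 to 16.2 CPM in FCGR4+ libraries), fibroblast markers (5 of 8, 364 to 1572 and 146 to 293 CPM), and T and NK cell markers (5 of 6, 14.1 to 45.6 and 3.59 to 8.97 CPM) were lower in FCGR4+ cells of every mouse as sums. Classical monocyte markers were divided: *Vcan* (-1.44, SE 0.23, adjusted P = 0.0602 in edgeR) was called lower, and the other 6 of 7 were not called, while 3 of 7 were called lower by DESeq2 and, at an unadjusted P under 0.05 in edgeR, 3 were lower and 1 higher. Their sum was 686 to 4585 CPM in FCGR4- and 735 to 3475 CPM in FCGR4+ libraries, lower in 2 of 4 mice, with the 2 highest FCGR4- and FCGR4+ sums in mice 3 and 4. None of the 11 macrophage markers was called by edgeR, though 7 were higher at an unadjusted P under 0.05 and 7 by DESeq2, with a median log2 fold change of 0.55. Of 4 tested eosinophil and 8 adipocyte markers, 0 were called by edgeR, with 0 lower in both lists and 1 adipocyte marker higher at an unadjusted P under 0.05, and 0 by DESeq2, with *Epx* and *Prg3* at or under 3 counts in every library. The part of these cells in the members' differences was not tested.

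**Figure D4:**
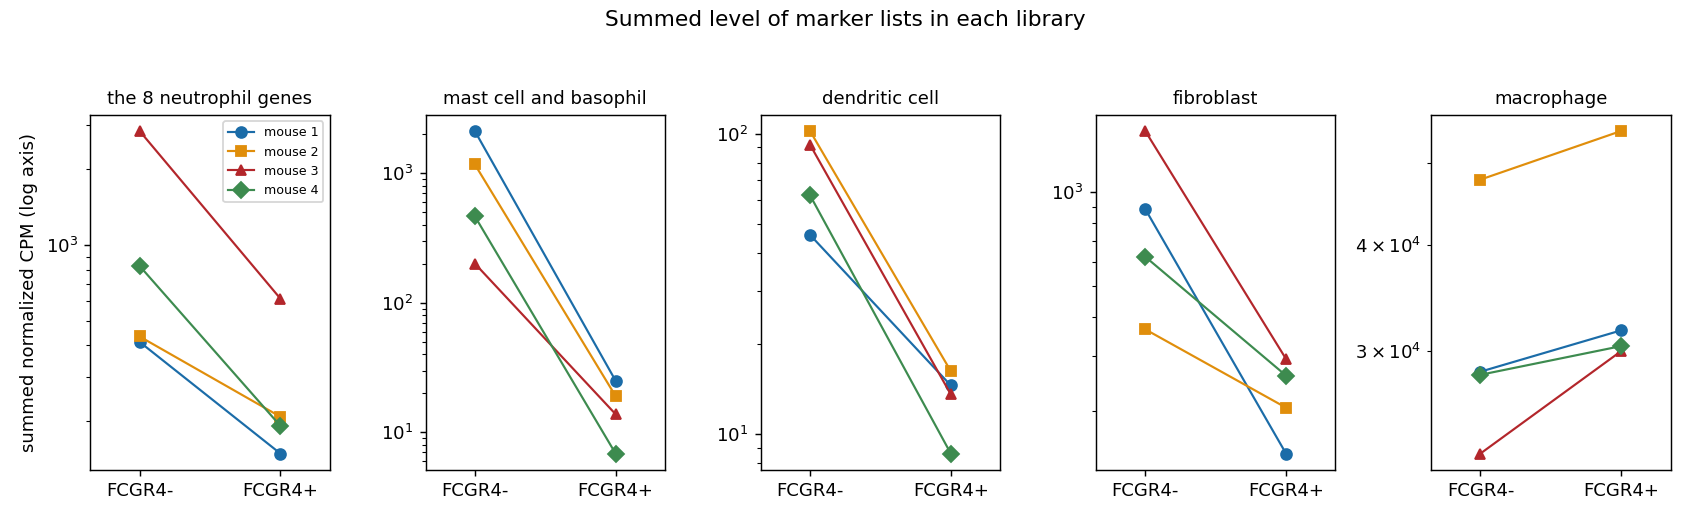
Summed normalized CPM (log axis, its range set for each panel) of the 8 neutrophil genes and of 4 lists of cell markers in FCGR4- and FCGR4+ libraries, with a line joining the 2 libraries of each mouse. Mouse 3 is highest for the neutrophil genes (2844 CPM in FCGR4- cells) and, among the FCGR4- libraries, lowest for mast cell and basophil markers (201 CPM), and the macrophage sums are higher in FCGR4+ cells in 4 of 4 mice.

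Among the genes of the sort gate, *Ptprc* (CD45) and *Itgam* (CD11b) had log2 fold changes of 0.22 (SE 0.18) and 0.06 (SE 0.17). Another annotated gene, *Gm49368*, covers 68.7% of the exon bases of *Itgam*, so its value is uncertain. Of the genes of the antigens removed by the sort, *Cd3d* (-2.34, SE 0.43) and *Cd3g* (-2.25, SE 0.39) were called lower with adjusted P values in edgeR of 0.0815 and 0.0681, *Cd3e* had a log2 fold change of -1.90 (SE 0.47, adjusted P = 0.195 in edgeR), *Siglecf* had a log2 fold change of -2.32 (SE 1.02, adjusted P = 0.516 in edgeR), and *Ly6g* is given above. Their transcripts were therefore detected in cells sorted without the proteins, each more abundant on average in the FCGR4- libraries.

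Within the mice of each ID prefix, as a description, *S100a8* had a log2 fold change of -2.19 in mice 1 and 2 alone and of -2.07 in mice 3 and 4 alone, *S100a9* of -2.13 and -2.35, and *Il1r2* of -2.19 and -2.80. *Retnlg* stood at -3.41 and -3.16 and *Lcn2* at -1.78 and -2.23, while *Csf3r* (0.12 and -1.96) and *Trem1* (0.54 and -2.18) had opposite signs. Omitting mice 1, 2, 3, and 4 singly put the log2 fold change of *Csf3r* at -1.29, -1.25, -0.41, and -0.68, and that of *Trem1* at -1.35, -1.29, -0.31, and -0.32. Without mouse 3, whose libraries had the highest summed level of the 8 members, the 5 genes that were lower in every mouse lay between -3.69 and -1.79. Without the replicate block, that is, with no account of which libraries came from the same mouse, 0 of the 8 members were called, beside 48 of all 17095 genes. The log2 fold changes without the block had a median of -2.15 over the 8 members, with *S100a8* at -2.07, *S100a9* at -2.23, and *Il1r2* at -2.73.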

How the data were processed

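Bulk RNA-Seq was analyzed in 8 libraries, FCGR4+ and FCGR4- eWAT macrophages from each of 4 mice. STAR was used by the authors for alignment to mm10 and featureCounts 1.6.3 for the gene counts, which were deposited without normalization. Per the file header, read pairs were counted on the GENCODE M18 annotation, a pair with several places in the genome was counted everywhere it mapped, and strand was not used. There were 0 per-sample columns left unused. Groups, mice, and replicate numbers come from the sample labels.

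Genes reaching 10 counts in 4 or more libraries (17095 of 54146) entered the fit, holding at least 99.8% of each library's counts. They were normalized by TMM (factors 0.937 to 1.11) and tested with edgeR 4.0.16 (R 4.3.3) by its quasi-likelihood method, blocking on mouse, with Benjamini-Hochberg adjustment over all tested genes, and a threshold of 0.1. The standard error of a log2 fold change was taken from the change itself and the F statistic (change over square root of F). RPKM values were computed from the CPM and the deposited gene length, and per-mouse log2 ratios from log2 CPM with a prior count of 2. The interaction of population with animal ID prefix was fitted in the same model. The fits were tested on simulated counts.

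The mouse numbers mark the same animal in both populations: the deviations of same-numbered libraries from their group means correlated at 0.286 or more in every mouse, against a median of -0.06 for different mice. Replicates differed by more than sampling noise. They are different mice, so P values cover the spread between these animals. Floors of 3 counts cover counting error only. Pairing followed the study's own model.

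The 8 members and all gene lists were chosen with earlier results of these data known. The text names all members, up to 6 genes past the threshold in each other list, the genes of the sort gate, the direct partners of the members, and the 5 nearest profiles. *Mpo*, *Elane*, *Ms4a3*, *Camp*, *Epx*, and *Prg3* are named as defining markers, and *Prtn3*, *Ctsg*, *Ltf*, and *Olfm4* after their values were seen. *Il36g* was found under its older symbol, and every listed gene was found (165 in all). A further gene is not reported here and was left out of the lists and their counts. Promoters came from RefSeq (GRCm38.p6) and matched all 8 members by symbol. Sequence shared between genes was counted in 50-base words of GENCODE transcripts on mm10, from a newer release than the counts. Alternatives were DESeq2 1.42.0 with the paired model, no block, RLE factors, library size alone, other filters, a threshold of 0.05, edgeR's other quasi-likelihood method, and leaving out each mouse or each prefix.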

Additional observations from a re-analysis of the deposited data

Results flagged for a closer look

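In 24 sets of 4 values (log2 ratios and log2 levels in each population for 8 members), 3 had a mouse standing apart from the other 3 by Dixon's criterion, while chance flags about 1 in 20, or 1.2 sets here. The log2 ratio of *S100a8* was -2.33 in mouse 2 and between -2.05 and -2.04 in the other mice (gap over range 0.984), a small distance among ratios that were nearly equal. The log2 ratio of *Il1r2* was -1.66 in mouse 1 against -2.88 to -2.68 in the others (0.841). The log2 level of *S100a8* in FCGR4- macrophages was 10.24 in mouse 3 against 7.51 to 7.97 in the others (0.834).

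The FCGR4 difference of *Trem1* and of *Csf3r* differed between mice 1 and 2 and mice 3 and 4 at an unadjusted P under 0.05 in edgeR's interaction test, by -2.69 and -2.06 log2 units (unadjusted P = 1.66e-05 and 0.00131, adjusted P = 0.285 and 0.303). Neither passes the adjustment over 17095 genes, and 2 mice with each prefix are too few to tell the prefix from the animals.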

How the results depend on the processing

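Since the members were chosen on this comparison, their calls are given as a description and are no sign of stability. The 5 members called lower with all mice and the replicate block became 0 with no replicate block, where 48 of 17095 genes were called, and stayed at 5 when 1 mouse was left out. The number was 4 in mice 1 and 2 alone, where *Lcn2* lost its call, and 6 with no filter on low counts, where *Csf3r* gained one. In mice 3 and 4 alone the number was 5, with *Trem1* in place of *Retnlg*, beside 113 of 17095 genes called. Of the wider neutrophil genes, 15 were called lower. That number was 1 with no replicate block, 28 with no filter on low counts, 6 at a threshold of 0.05, and 23 with DESeq2. It was 6 in mice 1 and 2 alone, 10 in mice 3 and 4 alone, and 7 to 10 when 1 mouse was left out. Calls over all 17095 genes, 203 lower and 14 higher in the main fit, moved as well. In either direction they were 76 at a threshold of 0.05, 1024 with DESeq2, 629 with edgeR's other quasi-likelihood method, and 84 to 163 when 1 mouse was left out. In mice 1 and 2 alone, 1 wider gene was called higher, against 0. Of the partner genes 0 were called lower, against 6 with no filter, 1 with DESeq2, 1 with edgeR's other quasi-likelihood method, 1 in mice 1 and 2 alone, and 0 to 1 without 1 mouse. With no filter the median of all 38021 genes was -0.16, a shift that the counts under that setting contain. Of the members, 0 had an interaction with the ID prefix that passed, against 1 (*Trem1*) with at least 10 counts in every library.

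The sign changed for *Csf3r* (0.12), *Trem1* (0.54), *Tyrobp* (-0.032), and *Trem3* (0.61) in mice 1 and 2 alone. It changed for *Itgam* (-0.029 with library size alone, -0.0591 in mice 3 and 4 alone, and -0.096 to 0.15 when 1 mouse was left out, negative without mouse 1), *Tlr4* (-0.019 to 0.23 when 1 mouse was left out, negative without mouse 1), and *Ager* (-1.37 in mice 3 and 4 alone, and -0.30 to 1.78 when 1 mouse was left out, negative without mouse 1 and without mouse 3). For all named genes and alternatives together, 686 results kept their direction and side of the threshold, 170 lost a call, 18 gained one, and 11 changed sign. The cause of these changes was not tested. *Ngp*, *Ager*, and *Ly6g* are limited by their low counts.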
